A study of Mus musculus with 24 samples.

Results

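Germline genes that are silent in somatic tissue were followed in brown adipose tissue (BAT) with 10 members: Sycp1, Sycp2 and Hormad1 of the meiotic chromosome axis and synaptonemal complex, Spo11 and Rad21l of meiotic recombination and cohesion, Mael and Tdrd5 of the piRNA pathway, and Slc25a31, Boll and Adad1 of later germ cell development. They were chosen by gene name in the annotation that accompanies reduced representation bisulfite sequencing (RRBS) counts, and fragments within 1000 bp of the annotated start were taken as promoter fragments. Of 65535 fragments, 222 were named for 9 of the 10 genes, and 27 of these lay among the 11146 promoter fragments of the table. Sycp2 had no fragment under its own name. BAT came from female C57BL/6J mice at postnatal day (PND) 12, from 12 litters whose dams received DDT, an organochlorine insecticide, by oral gavage from mid-gestation to the first days after birth, and from 12 litters whose dams received the olive oil vehicle (VEH). Each library was a pool of female littermates from 1 litter, so that litters were the replicates and no value belongs to a single pup. RRBS cuts DNA with MspI at CCGG and reads the short fragments after bisulfite treatment, which leaves methylated cytosines unchanged, and the level of a fragment is the percentage of its CpG calls that were methylated. BAT holds several cell types, and a level between 0 and 100% cannot be told apart as a mixture of cells, of alleles or of littermates.

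Germline genes are needed for meiosis, for silencing transposons in germ cells and for sperm and egg formation, and most are shut in other tissues. Many have promoters rich in CpG, a class that is usually free of methylation in all tissues, but these promoters gain DNA methylation in the early embryo and keep it in the soma. Repressor complexes that recognise E2F-type and E-box DNA motifs are known to act at a number of these promoters, together with the de novo DNA methyltransferases. The level in VEH litters describes the methylation of these promoters in unexposed tissue. The DDT litters address whether perinatal exposure was followed by a different level. Expression of the genes is not part of these counts.

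The fragments below carry the main values: the start-proximal fragments of the genes that were highly methylated, and the Boll fragment that differed most between the groups with a nearby one. Each is written 5′ to 3′ on the strand of its gene in GRCm38, with its CpGs in capitals.
Mael chr1:166238773-166238944 minus strand: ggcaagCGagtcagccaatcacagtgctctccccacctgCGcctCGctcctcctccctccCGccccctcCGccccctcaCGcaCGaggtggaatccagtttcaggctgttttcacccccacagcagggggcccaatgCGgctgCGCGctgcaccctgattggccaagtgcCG
Slc25a31 chr3:40708674-40708852 plus strand: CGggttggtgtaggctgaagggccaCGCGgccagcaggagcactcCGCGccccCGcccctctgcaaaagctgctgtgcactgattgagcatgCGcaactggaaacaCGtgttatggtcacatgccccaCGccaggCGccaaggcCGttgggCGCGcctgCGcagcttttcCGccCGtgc
Hormad1 chr3:95559559-95559667 plus strand: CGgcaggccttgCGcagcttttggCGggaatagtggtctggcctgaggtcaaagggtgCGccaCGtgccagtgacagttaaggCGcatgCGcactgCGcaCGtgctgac
Sycp1 chr3:102936148-102936195 minus strand: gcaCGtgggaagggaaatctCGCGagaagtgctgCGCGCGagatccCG
Spo11 chr2:172980056-172980158 plus strand: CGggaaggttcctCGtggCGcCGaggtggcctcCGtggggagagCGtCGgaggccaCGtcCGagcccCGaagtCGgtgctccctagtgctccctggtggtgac
Boll, centred 497 bp downstream, chr1:55362929-55363014 minus strand: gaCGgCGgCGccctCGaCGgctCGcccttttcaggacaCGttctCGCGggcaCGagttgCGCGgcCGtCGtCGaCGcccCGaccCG
Boll, centred 640 bp downstream, chr1:55362790-55362866 minus strand: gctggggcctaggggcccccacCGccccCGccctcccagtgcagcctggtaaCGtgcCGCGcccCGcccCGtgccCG

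These fragments held 11 CpGs in Mael, 16 in Slc25a31, 9 in Hormad1, 7 in Sycp1, 11 in Spo11, and 18 and 8 in Boll. The E2F-type core TCCCGC was searched on both strands and the E-box CACGTG, which reads the same on both, in RefSeq promoter windows on GRCm38, which run from 250 bp before to 50 bp after a start. Such windows were at hand for 8 members, all but Spo11 and Adad1. These 8 had 10 windows. TCCCGC was found in 7 of the 10, from 6 of the 8 genes (Boll, Hormad1, Mael, Slc25a31, Sycp1 and Tdrd5), against 19.98% of all 32851 windows. CACGTG was found in 6 of the 10, from 5 of the 8 genes (the same without Tdrd5), against 7.15% of all windows. Among the 8701 windows with at least 20 CpGs, TCCCGC was in 49.4% and CACGTG in 11.6%. Of the 7 such windows of members, from 6 genes, all 7 held TCCCGC and 5, from 4 genes, held CACGTG. In the fragments printed above, TCCCGC lies in those of Mael and Hormad1, and CACGTG in those of Slc25a31, Hormad1 and Sycp1. These matches are letters in a window, and the table has no measure of factor binding.

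The libraries held 8371958 to 13768991 CpG calls in VEH and 9895508 to 14124652 in DDT. Levels were taken from 10 calls upward per library. The test took in the 20225 fragments with such levels for 8 or more libraries in VEH and in DDT. The members contributed 72 of these, of which 20 were promoter fragments. Group means were compared at each fragment with a 1-factor F test, and an adjusted p is one corrected across all of these fragments. Reads were single-end and shorter than many fragments, so that a level rests on the CpGs near the fragment ends. Calls from PCR copies of the same molecule are not independent, so that counting error worked out from call numbers can be too low. DDT replicates 4 and 12 stood apart from the other libraries: the mean level over the tested fragments was 16.9% in DDT replicate 4 and 28.4% in DDT replicate 12, against 31.6 to 33.9% in the VEH libraries. DDT replicate 4 had a level in 59.96% of the tested fragments and in 13 of the 20 promoter fragments of the members, with a median of 26 calls there, where every other library had a median of 311 or more. Over the 27 tested fragments at member starts described below it had 16 levels, 7 of them at 2% or less or at 98% or more, where the other libraries had between 0 and 6 such levels. Values without these 2 libraries are therefore given beside the results they touch.

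In VEH litters the promoter fragments of the germline genes were methylated where most other promoters were not. Their median level was 73.8% over 20 fragments, with 14 at 50% or more and 3 under 10%, whereas the median of all 7423 tested promoter fragments was 4.13%, with 2.12% of them at 50% or more. CpG island cores, the central part of a CpG-dense stretch in the annotation of the table, showed the same contrast. The 12 core fragments of Boll, Mael and Slc25a31 had a median of 62.1%, and 7 of the 12 were at 50% or more. Of all 5375 core promoter fragments tested, 14 (0.260%) were at 50% or more, and these 7 made up 50% of them. The other 7 were named for Mcts2 and Nnat, known as imprinted genes, the germline RNA-binding gene Rbm46, Mir219-2, Mir1905 and Gm9857, whose fragment also lies at the start of the piRNA methyltransferase gene Henmt1. The 6 promoter fragments of Hormad1 and Adad1 carry no island class in the annotation. Their median was 79.8%, against 5.50% for the 1563 promoter fragments with no class. The missing class does not mean few CpGs, as a window of 300 bp at the Hormad1 start held 24. The 20 fragments came from Hormad1, Mael, Slc25a31, Boll and Adad1, with 8 from Boll. The members were picked as germline genes known to be silent in somatic tissue, with earlier results of these data known. These contrasts are therefore a description and were not tested.

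**Figure D1:**
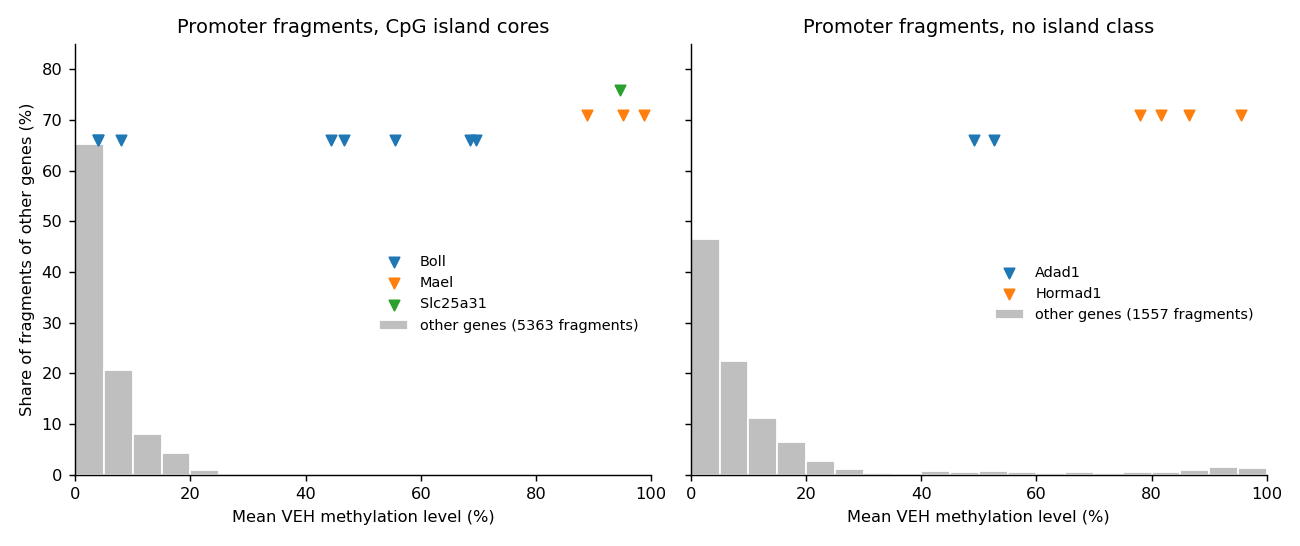
Mean VEH methylation level (x axis, %) of promoter fragments in CpG island cores (left) and with no island class (right), with bars for the share of fragments of other genes per 5-point bin (y axis, %) and triangles for single fragments of the named germline genes, whose height has no meaning. The bars pile up near 0, whereas 7 of 12 core triangles and 5 of 6 triangles without an island class lie at 50% or more.

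The gene named for a fragment in the table is not always the gene whose start lies there. Against the GENCODE M21 protein-coding starts of the members other than Tdrd5, 38 fragments lay within 1000 bp of a start of 8 genes, 27 of them tested. Of the 38, 9 were named for a neighbour: 5 at the start of Sycp1 were named Sike1 and 4 at the start of Sycp2 were named 9030418K01Rik. For Spo11 the table counts from an upstream start, and 3 fragments at its protein-coding start lay outside the promoter window. No fragment lay at the start of Rad21l. Over the 27 fragments chosen by position the VEH median was 82.8%, with 21 at 50% or more and 3 under 10%. This choice was made after the data were seen, and the fragments added by position are described below beside those chosen by name.

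Hormad1 encodes a protein of the meiotic chromosome axis that steers recombination to the homologous chromosome. Its 4 tested promoter fragments lie on chromosome 3 between positions -236 and 26 relative to the start and had VEH means of 77.9% ± 2.20, 86.5% ± 1.90, 95.5% ± 1.41 and 81.6% ± 1.48 (SD, n = 12), in that order. The fragment printed above, which ends 11 bp before the start, was the highest, with VEH levels from 92.8 to 97.8% (median 95.8%) and DDT levels from 93.0 to 98.7% (median 96.0%). The groups overlapped over most of this range. At the fragment farthest upstream, chr3:95559442-95559501, the VEH levels ran from 73.7 to 81.0% (median 78.0%) and 11 of the 12 DDT levels from 72.0 to 79.9%, whereas DDT replicate 4 was at 1.80% with 388 calls. The difference was -7.25 percentage points with all libraries, -0.99 without DDT replicate 4 and -0.498 without DDT replicates 4 and 12, and none of these passed the test (unadjusted p = 0.265 with all libraries). At the other 2 Hormad1 fragments with a level in this library it was at 90% with 10 calls and 88.9% with 27 calls. A pair of further Hormad1 promoter fragments had 33 and 5 calls over all libraries, too few for a level.

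Sycp1 encodes the transverse filament that joins paired chromosomes in meiosis. The 4 tested fragments at its start, all in a CpG island core, had VEH means of 87.5% ± 1.84 at the fragment centred 71 bp upstream, 76.2% ± 6.14 at 32 bp upstream, 93.3% ± 2.12 at 251 bp downstream and 84.0% ± 0.993 at 616 bp downstream (SD, n = 12). VEH levels at the fragment printed above ranged from 83.4 to 90.5% (median 87.6%) and DDT levels from 85.9 to 100% (median 88.3%). At the fragment 616 bp downstream DDT replicate 4 was at 96.4% with 1653 calls, where the other 11 DDT libraries ran from 81.5 to 85.6%, and the group difference went from 1.06 to 0.0216 percentage points without it. In the printed fragment the upper end in DDT was set by DDT replicate 4 with 14 calls, and the difference fell from 2.12 to 0.371 percentage points without DDT replicates 4 and 12. The 1 tested fragment under the name of Sycp1 lies inside the gene, far from the start, at 96.3% ± 2.24 in VEH (n = 12). Sycp2, which encodes a lateral element protein of the same complex, had 1 tested fragment, 660 bp upstream of its start, at 87.6% ± 8.69 in VEH (SD, n = 11) with 10 to 38 calls per library. Its other 3 start fragments had too few calls for the test, and over the pooled calls of all libraries stood at 76.0% of 75, 88.2% of 372 and 92.0% of 150 calls. Both starts were thus read only under another gene's name, at levels above 70%.

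Spo11 encodes the enzyme that makes the DNA breaks of meiotic recombination. At its protein-coding start on chromosome 2, the fragment centred 186 bp downstream was at 93.7% ± 1.04 in VEH and 94.3% ± 2.45 in DDT (SD, n = 12 each), and their difference fell from 0.524 to 0.00314 percentage points when DDT replicate 4, at 100% with 2355 calls, was left out. The fragment printed above, centred 265 bp downstream, ran from 92.4 to 97.8% in VEH (median 95.9%, n = 12) and from 94.5 to 100% in DDT (median 97.9%, n = 11). Its difference of 2.0 percentage points (95% interval 0.475 to 3.53, unadjusted p = 0.0126) was 2.01 without DDT replicates 4 and 12, and 9 of 11 DDT libraries were above the VEH median, but the adjusted p was 0.869. The single Spo11 fragment within 1000 bp of the start used in the table had 3 calls in all. Rad21l encodes a meiotic cohesin subunit, and its only tested fragment, inside the gene 19779 bp from the start, was at 77.1% ± 15.2 in VEH (SD, n = 10) with 10 to 49 calls.

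Mael, which acts in piRNA production and transposon silencing, had the highest pooled promoter level of the 5 members with tested promoter fragments. Its 3 tested fragments, all in a CpG island core, had VEH means of 98.7% ± 0.757 between positions -201 and -30 relative to the start, 95.2% ± 0.796 across the start and 88.8% ± 8.95 between positions 33 and 147 (SD, n = 12). In the upstream fragment printed above VEH levels ran from 97.1 to 99.8% (median 98.8%) and DDT levels from 89.0 to 99.0% (median 98.4%), where the lowest DDT value was that of DDT replicate 12. In the fragment across the start VEH levels ran from 94.0 to 96.5% and DDT levels from 92.0 to 99.3%, with means that differed by 0.0017 percentage points (95% interval -1.14 to 1.14). The lowest DDT value was that of DDT replicate 12 and the highest that of DDT replicate 4, and the difference was -0.378 without DDT replicate 4, 0.288 without DDT replicate 12 and -0.101 without both. The fragment between positions 33 and 147 had 10 to 117 calls in the libraries with a level, which were 12 in VEH and 8 in DDT. Another Mael promoter fragment, not tested, was at 85.4% of 137 pooled calls.

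Tdrd5, whose Tudor domain protein acts in the same pathway in male germ cells, had 4 fragments under its own name, all outside the promoter window and with too few calls for the test.

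Slc25a31, which encodes the ADP/ATP carrier of male germ cell mitochondria, was methylated on both sides of its start. In VEH, means were 89.2% ± 11.1 (SD, n = 8) just upstream, in the fragment printed above, 94.6% ± 1.0 at 154 bp downstream and 82.8% ± 5.97 at 477 bp downstream (SD, n = 12). The fragment at 154 bp was read deepest and ranged from 93.1 to 96.2% in VEH (median 94.5%) and from 93.5 to 100% in DDT (median 94.8%), the highest being DDT replicate 4 with 12 calls. The other 3 promoter fragments were not tested and stood at 100% of 43, 85.8% of 155 and 71.1% of 515 pooled calls. Over all fragments within 1000 bp, the pooled level of Slc25a31 was 92.9% ± 1.02 in VEH, after 95.5% ± 0.737 in Mael and before 83.0% ± 1.47 in Hormad1, 51.7% ± 7.35 in Adad1 and 36.3% ± 5.06 in Boll (SD, n = 12 each). The ranges of neighbours in this order did not overlap between Slc25a31 and Hormad1 or between Hormad1 and Adad1 in VEH. Between Mael and Slc25a31, and between Adad1 and Boll, they did.

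Boll, a DAZ family RNA-binding protein gene needed for sperm formation, changed from low to partial methylation along a single CpG island core. VEH means were 3.95% ± 1.18 across the start used in the table, 4.04% ± 3.27 at 50 bp and 7.91% ± 1.35 at 112 bp downstream, and then 55.5% ± 2.56 at 497 bp, 69.7% ± 8.71 at 580 bp, 44.4% ± 7.82 at 640 bp, 46.7% ± 3.59 at 777 bp and 68.6% ± 3.76 at 897 bp (SD, n = 12 each). The transcripts annotated for Boll start at several points in and beyond this stretch, and the fragment at 777 bp spans another protein-coding start. The fragment at 497 bp, printed above with 18 CpGs, was read with 634 to 3802 calls in VEH. The highest call number, 16350, was that of DDT replicate 4. The level of this fragment stayed between 50.9 and 59.5% in VEH and 50.8 and 59.0% in DDT.

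Adad1, an RNA-binding protein gene of spermatids, stood near the middle of the scale. The fragment centred 251 bp downstream was at 49.2% ± 4.06 in VEH, with levels from 42.2 to 55.6% (median 50.1%). The fragment next to it, at 297 bp, was at 52.6% ± 8.84 in VEH, with levels from 33.98 to 64.3% (median 55.5%), and at 48.9% ± 13.8 in DDT, from 27.4 to 77.2% (median 48.0%). The highest DDT value was that of DDT replicate 4 and the lowest that of DDT replicate 12. Without these 2 libraries the DDT level was 48.2% ± 9.52 (SD, n = 10). The difference from VEH went from -3.69 to -4.38 percentage points. Among 270 tested fragments with VEH means of 40 to 60% and at least 200 calls in every VEH library, the median SD between VEH libraries was 2.97 percentage points, and 15 of them (5.56%) had a larger SD than the fragment at 297 bp, whereas 86 (31.9%) had a larger SD than the Adad1 fragment at 251 bp. The other member fragments of this set were the Boll fragment at 497 bp, with an SD of 2.56, and a pair of Spo11-named fragments upstream of the gene, with SDs of 7.67 and 2.87.

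**Figure D2:**
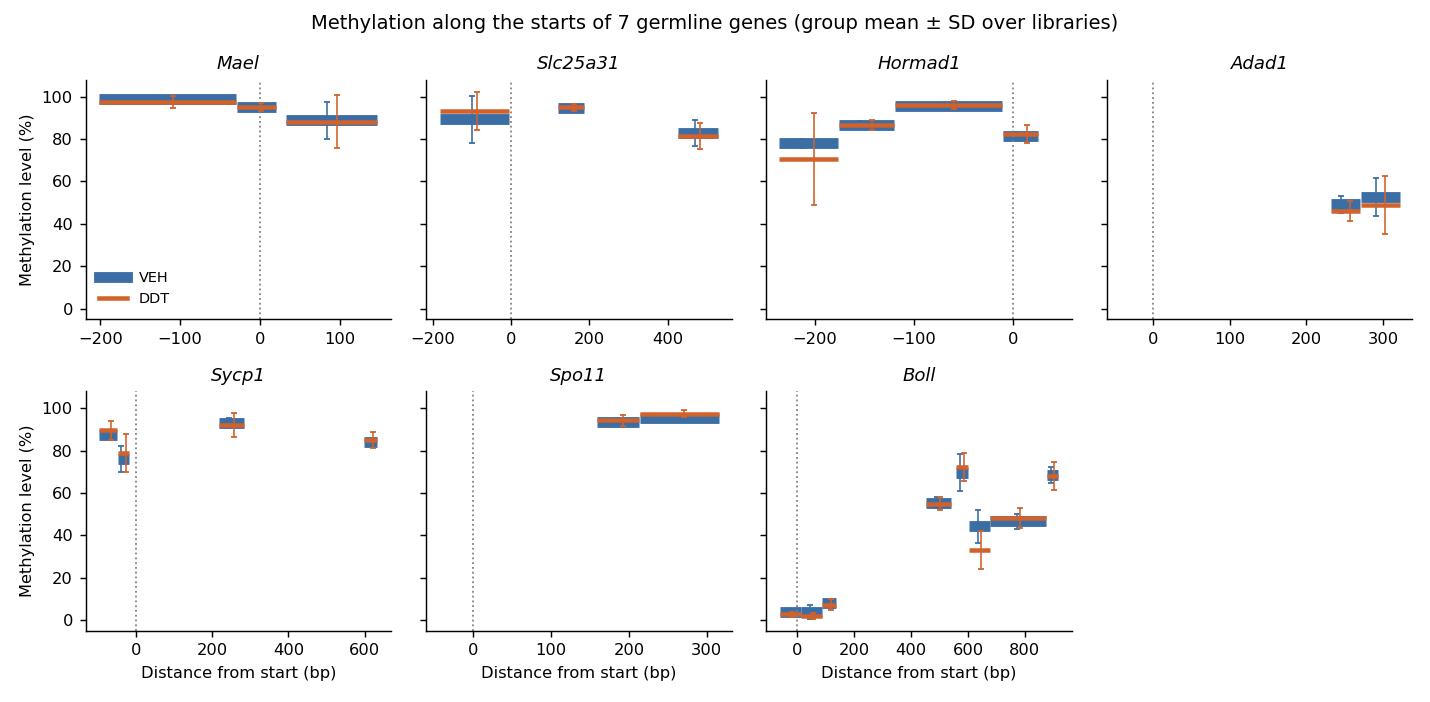
Mean methylation level (y axis, %) of each tested fragment against its distance from the gene start (x axis, bp, positive is downstream; dotted line, start) for 7 germline genes, with broad blue bars for VEH and thin orange bars for DDT that span the fragment, and vertical lines for ± 1 SD over libraries. Mael, Slc25a31, Hormad1, Sycp1 and Spo11 lie above 70% in both groups, Adad1 near 50%, and Boll rises from under 8% near the start to between 33.0 and 72.4%.

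No difference between DDT and VEH litters passed the adjusted threshold at these genes. With the p-values of the F test adjusted by Benjamini-Hochberg across the 20225 fragments, 0 of the 72 member fragments had an adjusted p under 0.05, beside 0% of all fragments. The lowest adjusted value among the members was 0.869. Without adjustment, 6 of the 72 (8.33%) had p under 0.05, beside 4.18% of all tested fragments (845), as had 2 of the 20 promoter fragments, beside 3.58% of all tested promoter fragments (266). The level was lower in DDT at 44 of the 72 and at 12 of the 20, where 56.9% of all tested fragments and 56.7% of all tested promoter fragments were lower. The median difference over the 20 was -0.566 percentage points, against -0.127 over all tested promoter fragments. For the promoter level pooled per gene, 0 of the 5 genes passed, beside 0% of 1682 genes adjusted, and 0 of the 5 had an unadjusted p under 0.05, beside 3.51% of all (59 genes).

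Both promoter fragments under the unadjusted threshold belonged to Boll. At chr1:55362790-55362866, the second Boll sequence above, VEH levels ran from 27.4 to 56.4% (median 43.0%, n = 12) and DDT levels from 17.6 to 47.1% (median 35.6%, n = 11), and the groups overlapped with 9 of 11 DDT libraries below the VEH median. The difference was -11.3 percentage points (95% interval -18.6 to -4.06, unadjusted p = 0.0039, adjusted p = 0.869) and -10.8 without DDT replicates 4 and 12. This fragment had 17 to 1112 calls per library, and the lowest DDT value, from DDT replicate 3, rested on 17 calls. The differences at the fragments on its sides had the other sign, with intervals that span 0. The neighbour upstream, at 580 bp, differed by 2.73 percentage points (95% interval -3.80 to 9.26) and the neighbour downstream, at 777 bp, by 1.58 (95% interval -1.97 to 5.12). The second fragment was the one across the Boll start used in the table, where VEH levels ran from 2.24 to 5.90% (median 3.65%) and DDT levels from 0.0232 to 4.2% (median 2.95%), 11 of 12 DDT libraries lying below the VEH median. Its difference of -1.22 percentage points (95% interval -2.17 to -0.279, unadjusted p = 0.0135) was -0.977 without DDT replicates 4 and 12, and the adjusted p was 0.869. VEH levels at this fragment lie near the VEH median of all tested promoter fragments, 4.13%, and the lowest DDT value was that of DDT replicate 4.

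Pooled over the promoter of each gene, the differences and 95% intervals in percentage points were -0.138 (-1.35 to 1.07) for Mael, -0.249 (-1.51 to 1.02) for Slc25a31, -6.82 (-19.5 to 5.87) for Hormad1, -4.71 (-11.9 to 2.45) for Adad1 and -2.33 (-6.70 to 2.03) for Boll, with adjusted p between 0.849 and 0.940. For Mael and Slc25a31 the intervals lie within 2 points of 0. For Hormad1 the width came from DDT replicate 4, whose pooled level was 9.39%, and the difference was -0.743 without it. For Adad1 and Boll the intervals, from -11.9 to 2.45 and from -6.70 to 2.03, are wider than those of Mael and Slc25a31 and also span 0. Without DDT replicates 4 and 12 the differences were -4.04 for Adad1 and -2.61 for Boll. The sign of the difference at Mael and at Slc25a31 changed under some of the other settings given in the closing section.

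**Figure D3:**
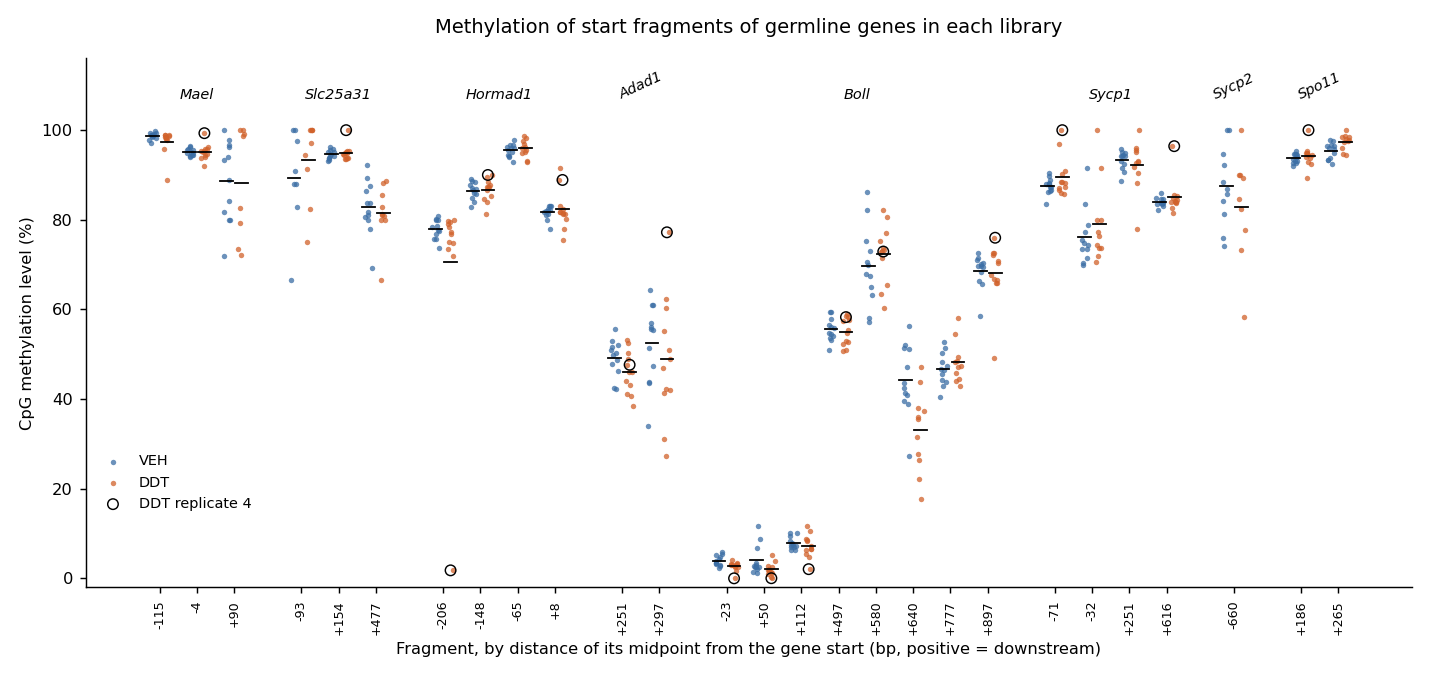
Methylation level (y axis, %) of every library with at least 10 calls at the 27 tested start fragments, grouped by gene and labelled by the distance of the fragment's midpoint from the start (x axis, bp), with blue points for VEH, orange points for DDT, short lines for group means and rings for DDT replicate 4. The ranges of VEH and DDT points overlap at all 27 fragments, and the ringed library lies outside the range of the other DDT points at 12 of the 16 fragments where it has a level, 4 below and 8 above, farthest at Hormad1 (1.80%).

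**Figure D4:**
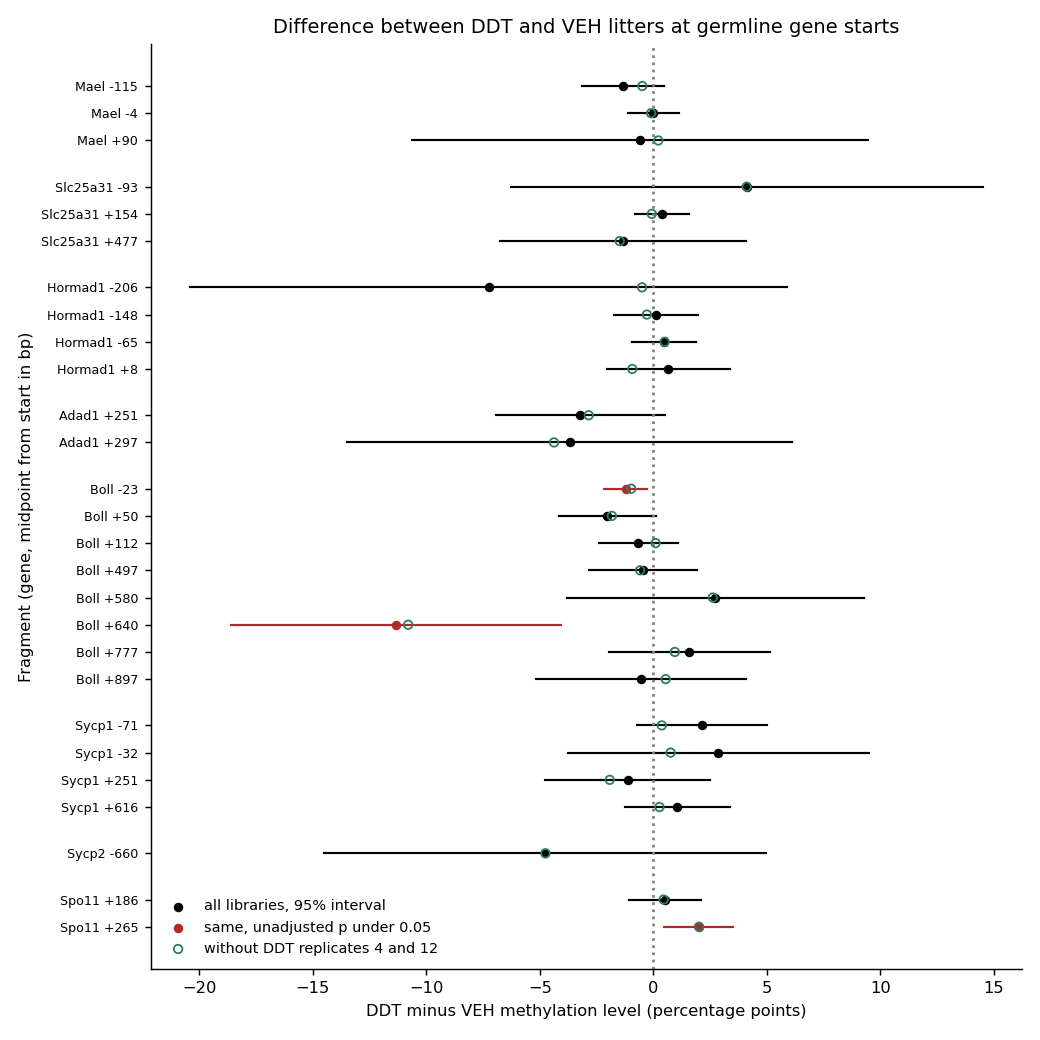
Difference in methylation level, DDT minus VEH (x axis, percentage points), at the same 27 fragments (y axis), with filled points and 95% intervals for all libraries, red where the unadjusted p is under 0.05, and open green circles for the difference without DDT replicates 4 and 12. The red points are 2 fragments of Boll (-11.3 and -1.22) and 1 of Spo11 (2.0), and the open circle of the first Hormad1 fragment moves from -7.25 to -0.498.

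The 52 tested fragments named for members outside the promoter window had a VEH median of 15.6% and ranged from 1.42 to 96.4%. Few of them belonged to the germline genes by position: 5 lay in or at the start of the gene they were named for, 20 within 1000 bp of a protein-coding start of another gene, 1 inside another gene and 26 in none. Those at other starts were low, with medians of 4.80% for 10 Boll-named fragments at the start of Plcl1, 2.08% for 3 Mael-named fragments at Ildr2 and 3.58% for 7 Spo11-named fragments at Bmp7. Spo11-named fragments reached 249408 bp from its start. Of the 52, 4 (7.69%) had an unadjusted p under 0.05, beside 4.18% of all tested fragments, and of these 1 was the Spo11 start fragment above. The smallest belonged to a Spo11-named fragment 140785 bp upstream, chr2:172836861-172836916, at 90.9% ± 6.11 in VEH (83.3 to 100%, median 90.9%, n = 10) and 74.9% ± 10.5 in DDT (58.8 to 87.0%, median 73.9%, n = 8). Its difference of -16.0 percentage points had p = 0.00137 in an exact two-sided permutation test and an adjusted p of 0.869 in the fit over all fragments, with 11 to 32 calls per library. For Boll it was the fragment at the start of Plcl1, chr1:55406610-55406670, at 8.10% ± 1.67 in VEH and 6.21% ± 2.27 in DDT (SD, n = 12 each, unadjusted p = 0.0296), and at p = 0.0820 without DDT replicates 4 and 12.

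Further germline genes, listed with earlier results of these data known, were mixed. Of 100 further genes of meiosis, the piRNA pathway and gametogenesis, 16 lie on the chromosomes of the table and 8 had tested promoter fragments under their own name. Their VEH promoter medians were 90.5% for Sohlh1, a transcription factor of early germ cells, 89.7% for Gpat2, 89.0% for Tnp1, a transition protein of sperm chromatin, 86.0% for Rbm44, 34.2% for Rbm46, 33.3% for Tdrkh of the piRNA pathway, 7.82% for Tcfl5 and 1.46% for Exd1. Thus 4 of the 8 genes had medians of 50% or more and 2 under 10%. Counted by fragment, 7 of 30 were at 50% or more and 10 under 10%, with a median of 24.3%, beside 2.12%, 80.4% and 4.13% for all tested promoter fragments, and the 4 high genes supplied 6 of the 30. By position Sohlh2 joined them at 92.9% over 2 fragments. Among the 30 fragments of these 8 genes 1 had an unadjusted p under 0.05, beside 3.58% of all tested promoter fragments. This was at Sohlh1, where VEH levels ran from 89.3 to 92.3% (median 90.6%) and DDT levels from 90.4 to 100% (median 91.8%), a difference of 2.20 percentage points that was 1.16 without DDT replicates 4 and 12 (unadjusted p = 0.0139 and 0.00691, adjusted p = 0.869 with all libraries).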

How the data were processed

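BAT DNA of 24 litter pools, 12 VEH and 12 DDT, was measured by RRBS. Per the labels and the study's methods, reads were trimmed with Scythe and Sickle and aligned to GRCm38 with Bismark 0.15.0 and Bowtie2, with FastQC for quality. The authors deposited unnormalized counts of methylated and not methylated CpG calls per MspI fragment, with a gene name, a distance from its start and a CpG island class; the annotation release is not given in the sources used here. The table covers chromosome 1, chromosome 2 and chromosome 3 up to position 136670346, and other positions were not analysed here. Levels, ANOVA F tests and Benjamini-Hochberg adjustment were computed on the whole table (minimum of 10 calls, at least 8 libraries per group, threshold 0.05), and promoter levels per gene from the summed calls within 1000 bp. Where a named fragment had fewer than 10 levels in a group and its p is printed, an exact permutation test is given. The F test sets the difference of group means against the spread between litter pools within groups. That spread also holds counting error. Starts came from GENCODE M21, and sequences from GRCm38 and RefSeq, outside annotated untranslated regions. All 10 members are named; their promoter fragments get values, other fragments are named singly only for the smallest p under 0.05 per gene, and further germline genes by the 4 highest and 4 lowest VEH levels or an unadjusted p under 0.05. Results at the start of Tdrd5 are not reported here. Members and lists were chosen with earlier results of these data known. Alternatives were a quasi-binomial regression, limma on log2((methylated + 1) / (not methylated + 1)), 5 or 20 calls, levels in all 24 libraries, a depth covariate, windows of 500 and 2000 bp, the replicate number as a block and each library left out, and, added after the data were seen, leaving out DDT replicates 4 and 12 and assigning fragments by protein-coding start. Same-numbered VEH and DDT litters are different litters. The tests were run on simulated data with the VEH spread in both groups and shifts set at fragments of intermediate VEH level. At the adjusted threshold the F test recovered 55% of 100 shifts of 10 percentage points and 91% of 100 shifts of 20. There, 6 unshifted fragments also passed. The wider spread that DDT replicates 4 and 12 bring was not simulated. No pair of libraries had identical counts. The versions were R 4.3.3, limma 3.58.1, SciPy 1.17.1, NumPy 2.4.6, pandas 2.3.3, Python 3.11.15 and, for plots, matplotlib 3.10.9.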

Additional observations from a re-analysis of the deposited data

Results flagged for a closer look

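Groups with 4 to 10 levels were screened for a single library far from its nearest neighbour by Dixon's gap over range, a screen that flags about 1 in 20 groups by chance. Of 7 groups at the fragments described above, 1 held such a library. At the Slc25a31 fragment chr3:40709282-40709384, DDT replicate 10 was at 66.7% with 27 calls, and the next DDT library was at 80% (gap 0.608 of the range, n = 10). The part of the low call numbers in this value was not tested.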

How the results depend on the processing

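The count of fragments and of promoter regions past the adjusted threshold was 0 under each of the alternatives run, with 441 to 1562 fragments and 40 to 117 promoter regions at an unadjusted p under 0.05, and no member passed. The count of member fragments at an unadjusted p under 0.05, 6 with the settings of the report, was 2 of 35 (5.71%, beside 4.24% of all fragments) with a level required in all 24 libraries, and 3 of 27 (11.1%, beside 4.18%) with fragments assigned by protein-coding start, where fewer fragments were tested. It lay between 5 (6.94% with limma, beside 3.51%) and 9 (12.5% with the quasi-binomial regression, beside 7.72%) under the other alternatives. With each library left out in turn it lay between 5 and 8 (6.94 to 11.3%, beside 3.70 to 5.38% of all fragments). The median VEH promoter level of 73.8% was 84.1% with a window of 500 bp and 77.9% with 2000 bp, 69.7% with at least 5 calls, 69.1% with at least 20 calls, 68.6% with a level in all 24 libraries and 82.8% with fragments assigned by protein-coding start, shifts that come with the set of fragments (13 to 27). It lay between 73.2 and 74.5% with each VEH library left out. The sign of the promoter difference at Slc25a31, -0.249 percentage points, turned to 0.222 with at least 20 calls, 0.779 with a window of 500 bp, 0.292 without DDT replicates 4 and 12 and 0.222 without DDT replicate 4, and with each library left out ran from -0.430 to 0.222. The sign at Mael turned to 0.0609 (log2 ratio) with limma and to 0.261 without DDT replicate 12, and with each library left out ran from -0.481 to 0.261. The differences at Hormad1, Adad1 and Boll kept their sign under each alternative. With the replicate block, which shares only numbers between litters (correlations of -0.180 to 0.199 between same-numbered libraries, over 0.1 in 3 of 12), the counts were again 0 adjusted. Unadjusted, 834 fragments (4.12%) and 6 member fragments (8.33%) were under 0.05, and no adjusted call changed. Depth limits the thinly read fragments. With calls taken as independent, counting error alone gives an SD of 3.61 percentage points in VEH at the Boll fragment centred 640 bp downstream. At the Slc25a31 fragment just upstream of the start it gives 6.71. Both can be too low where calls are PCR copies.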
